A study of Homo sapiens with 16 samples.

Results

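miR-9 is a small RNA best known from the nervous system, and its 2 mature arms, hsa-miR-9-5p and hsa-miR-9-3p, were examined here in OE19 cells, a human esophageal adenocarcinoma (EAC) cell line. The arms were found by the probe names on the arrays, 1 probe for each arm, and made up 2 of the 2565 probes for human miRNAs. They were chosen by their values on these same 16 arrays, that is, their levels, the correlation of the arms and their differences between arrays and treatments, so all of these values are a description, and no adjusted p given for the arms is independent evidence. Untreated OE19 cells (control) were measured on 8 arrays, and another 8 arrays held the same line after 48 h with telmisartan at 100 μM. Telmisartan is an angiotensin II type 1 receptor blocker used against high blood pressure, and the study asked which miRNAs accompany its effect on EAC cells. All 16 samples were total RNA of the same cultured line, with no other cell type or genotype. No label says whether arrays with the same treatment had cultures of their own, so each p-value reflects the spread among these samples alone, and that spread may be technical. Each group has arrays 1 to 8, and arrays 1 to 4 are also described apart from arrays 5 to 8, although no label says what distinguishes them.

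A miRNA is cut from a hairpin precursor, and either strand of the resulting duplex can be loaded into an Argonaute protein, where bases 2 to 8 of the mature RNA, the seed, guide it to messenger RNAs. miR-9 is among the most abundant miRNAs of the vertebrate brain and takes part in the step from neural progenitor to neuron. Both arms are known to act there, miR-9-5p on the repressor REST and miR-9-3p on its partner CoREST, and miR-9-5p also on the nuclear receptor TLX. Outside the nervous system, miR-9-5p is known in breast cancer cells as a repressor of E-cadherin, and the miR-9 genes are known to be methylated in several carcinomas.

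The mature sequences are shown because the arms come from opposite sides of the same hairpins and are read by separate probes. They were taken from RefSeq, with the seed in capitals.

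hsa-miR-9-5p: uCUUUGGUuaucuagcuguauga
hsa-miR-9-3p: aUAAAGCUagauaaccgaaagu

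The arms had different seeds, CUUUGGU and UAAAGCU, and no other mature miRNA among the 2368 compared shared either of them. The arms are near complements over most of their length. When miR-9-5p was laid against the reverse complement of miR-9-3p, 17 of 21 overlapping bases matched, with a longest run of 12. The nearest mature sequence to miR-9-5p was miR-581, with 14 matching bases of 23, and its probe was detected on 3 arrays. The nearest to miR-9-3p were miR-335-5p, detected on all 16 arrays, and miR-6828-5p, detected on 9, each with 13 matching bases of 22. The probe sequences were not used here, and whether similar miRNAs added signal to either probe was not tested.

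Both arms are made from 3 genes, and the arrays cannot tell which gene an arm came from. In the RefSeq annotation of GRCh38.p14, MIR9-1 lies at chr1:156420341-156420429 on the minus strand, MIR9-2 at chr5:88666853-88666939 on the minus strand and MIR9-3 at chr15:89368017-89368106 on the plus strand. Each lies within a long noncoding RNA gene that bears its name, MIR9-1HG, MIR9-2HG and MIR9-3HG, and whether in an exon or an intron was not determined here. The hairpins are shown to place the arms, with the mature arms in capitals.

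MIR9-1: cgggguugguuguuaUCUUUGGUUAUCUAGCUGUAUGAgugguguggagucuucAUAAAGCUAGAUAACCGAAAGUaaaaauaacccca
MIR9-2: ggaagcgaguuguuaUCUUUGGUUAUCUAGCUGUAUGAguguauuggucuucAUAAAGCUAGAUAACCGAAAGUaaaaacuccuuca
MIR9-3: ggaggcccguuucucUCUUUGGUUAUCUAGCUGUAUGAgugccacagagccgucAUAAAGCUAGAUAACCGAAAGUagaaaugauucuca

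The hairpins were 89, 87 and 90 bases long and held identical copies of both arms, while the loops between the arms, of 16, 14 and 16 bases, and the flanks differed. Folded with RNAfold, each hairpin paired 19 of the 23 bases of miR-9-5p with miR-9-3p, at -41, -39 and -41.7 kcal/mol.

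The arrays gave 1 fluorescence intensity for each probe. The background of an array, the trimmed mean of its blank spots, ran from 14.9 to 33.6, and 453 to 1884 of the 2565 probes exceeded the detection level. Both miR-9 arms were among the 382 probes that passed this level on every array. The authors' normalized values cover these 382 probes, are linear, and have the same median, 37.7, on each array. All 5 epithelial markers of the miR-200 family and all 3 columnar gut markers were detected on all 16 arrays. Of all probes, 14.9% were detected on all 16. Of the markers of other cells, the endothelial miR-126-3p and the neural miR-128-3p were also detected on all 16. The remaining neural markers were detected on fewer, miR-124-3p on 3, miR-137 on 4 and miR-219a-5p on 1. The endothelial miR-126-5p was detected on 11 and the squamous miR-205-5p on 8. The 4 blood markers were detected on 1 to 14, the 4 fibroblast markers on 2 to 8 and the 3 muscle markers on 1 or 2.

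The place of both arms among the 382 detected miRNAs depended on the array set. In control arrays 1 to 4, miR-9-5p ranked 203 to 250 from the top and miR-9-3p 220 to 258, and in control arrays 5 to 8 they ranked 342 to 376 and 362 to 382. The normalized intensity of miR-9-5p in control arrays 1 to 4 was 20.3, 31.9, 27.9 and 33.5, and in control arrays 5 to 8 it was 8.00, 9.73, 6.23 and 8.85. In telmisartan arrays 1 to 4 it was 16.7, 10.8, 11.3 and 23.5, and in telmisartan arrays 5 to 8 it was 15.1, 7.37, 9.47 and 8.15. The 4 control arrays 1 to 4 were therefore all above the 4 control arrays 5 to 8, while the telmisartan arrays lay between and overlapped both sets.

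For miR-9-3p the control sets were apart as well, and the telmisartan arrays reached into the lower set alone. Its normalized intensity in control arrays 1 to 4 was 18.8, 20.9, 19.2 and 27.4, and in control arrays 5 to 8 it was 6.75, 6.75, 4.85 and 7.78. In telmisartan arrays 1 to 4 it was 15.8, 8.24, 11.4 and 17.2, and in telmisartan arrays 5 to 8 it was 12.4, 5.38, 10.2 and 6.43. Control array 4 was the highest and control array 7 the lowest of the 16 for both arms, and the value of miR-9-3p in control array 7 was the lowest in the whole table. The bright and the dim arrays of both arms are set out in the plot of values by array.

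**Figure D1:**
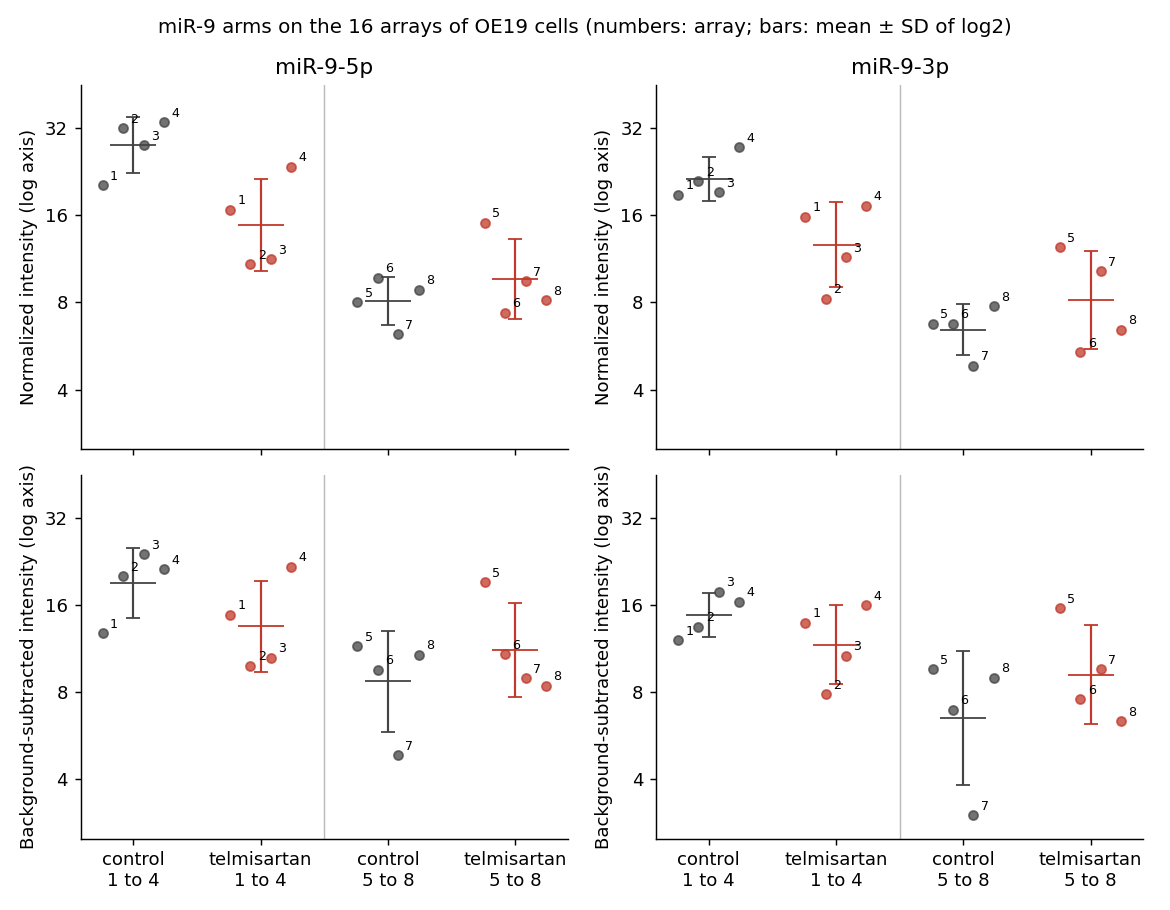
Normalized intensity (upper panels) and background-subtracted intensity (lower panels) of miR-9-5p (left) and miR-9-3p (right) on a log axis. Each point is 1 array with its number, grey for control and red for telmisartan, and bars give the mean ± SD of the log2 values of 4 arrays. For both arms, control arrays 1 to 4 lay above control arrays 5 to 8 with no overlap in the upper panels, and control array 7 was the lowest.

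On the log2 scale, miR-9-5p had a mean of 3.91 ± 0.99 (SD, n = 8) in control arrays and 3.58 ± 0.56 (SD, n = 8) in telmisartan arrays. For miR-9-3p the means were 3.55 ± 0.96 (SD, n = 8) and 3.34 ± 0.59 (SD, n = 8). By mean level over the 16 arrays, miR-9-5p ranked 308 and miR-9-3p ranked 331 of the 382 probes. These means pool array sets with unlike levels. Intensities of different probes are not calibrated against each other, so these ranks do not say which arm was more abundant. Both arms were among the most variable probes. The SD over the 16 arrays was 0.80 for miR-9-5p, rank 8 of 382, and 0.78 for miR-9-3p, rank 13, against a median of 0.34 over all probes.

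The order of the levels was the same for both arms, from control arrays 1 to 4 down through telmisartan arrays 1 to 4 and telmisartan arrays 5 to 8 to control arrays 5 to 8. The log2 means of miR-9-5p in this order were 4.80 ± 0.32, 3.89 ± 0.53, 3.27 ± 0.46 and 3.02 ± 0.28 (SD, n = 4 each). Those of miR-9-3p were 4.42 ± 0.25, 3.66 ± 0.48, 3.03 ± 0.56 and 2.69 ± 0.29 (SD, n = 4 each). The values of telmisartan arrays 1 to 4 and 5 to 8 overlapped for both arms, as did those of telmisartan and control in arrays 5 to 8, so those neighbours in the order were not separated by the spread between arrays. Only the top step was free of overlap, and only for miR-9-3p.

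The depth of the measurement was limited by background, since the raw intensity of miR-9-5p was 1.22 to 1.90 times the background of its array and that of miR-9-3p was 1.13 to 1.73 times. After background subtraction, miR-9-5p gave 4.84 to 24.0 (median 12.2) in control arrays and 8.42 to 21.6 (median 10.7) in telmisartan arrays. miR-9-3p gave 3.01 to 17.8 (median 10.8) and 6.35 to 15.9 (median 10.1). On this scale the control and telmisartan medians of each arm lay close together. Measured in SDs of the blank spots, miR-9-5p stood 3.42 to 25.3 above background (median 13.6) and miR-9-3p 2.55 to 18.6 (median 10.7). The lowest of these values was in telmisartan array 7 for miR-9-5p and in control array 7 for miR-9-3p. In control array 7, 1 of its 320 blank spots was brighter than the miR-9-5p spot and 5 were brighter than the miR-9-3p spot, while on the other arrays no blank spot was brighter than either arm except 1 above miR-9-3p in control array 8.

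The largest contrast of the arms was between untreated arrays. In control, the geometric mean of arrays 1 to 4 was 3.45-fold that of arrays 5 to 8 for miR-9-5p and 3.31-fold for miR-9-3p. Only 2 of the 382 probes fell further from the first set to the second than miR-9-5p, and only 4 further than miR-9-3p. Many other miRNAs separated the same arrays: 31.2% of the probes had all 4 control arrays 5 to 8 below all 4 control arrays 1 to 4, and with limma 72.0% of the probes were called between these control sets in either direction and 35.1% as lower in arrays 5 to 8. In telmisartan arrays the ratio of arrays 1 to 4 to arrays 5 to 8 was 1.54-fold for miR-9-5p and 1.55-fold for miR-9-3p, with overlap, in a comparison where limma called 10.5% of the probes. In background-subtracted intensity without normalization, the control ratio was 2.19-fold for miR-9-5p and 2.26-fold for miR-9-3p.

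The background also differed between the array sets. It was 27.7 ± 4.0 (SD, n = 4) in control arrays 1 to 4 and 20.1 ± 3.7 (SD, n = 4) in control arrays 5 to 8, and 29.7 ± 4.8 and 21.3 ± 1.9 (SD, n = 4 each) in the corresponding telmisartan arrays. Arrays with a higher background tended to have higher values of both arms (Pearson's r = 0.55 for miR-9-5p and 0.65 for miR-9-3p, n = 16). The number of probes detected ran the other way, with r = -0.39 for miR-9-5p and -0.54 for miR-9-3p. These are descriptions over arrays that share labelling and normalization, and the part of background or detection in the levels of the arms was not tested.

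Neither arm was called between telmisartan and control over all arrays, and the change of each was smaller than the spread between arrays. For miR-9-5p the log2 difference, telmisartan minus control, was -0.33 (SE 0.38, 95% interval -1.14 to 0.47, limma adjusted p = 0.687), a ratio of 0.794. For miR-9-3p it was -0.21 (SE 0.37, 95% interval -0.999 to 0.58, limma adjusted p = 0.832), a ratio of 0.866. In the same fit 65 of the 382 probes were called (17.0%), 37 as higher (9.69%) and 28 as lower (7.33%) with telmisartan. The median log2 difference of all probes was -0.01. Under the quantile normalization over all probes detected on each array, the differences were 0.12 and 0.23, neither of them called, and the median was 0.23. By size of change, miR-9-5p ranked 93 and miR-9-3p 166 of 382. Both intervals span 0, so the values were compatible with no change and with a change of either sign within them.

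The sign of the change of both arms differed between the array sets. In arrays 1 to 4 both arms were lower with telmisartan on the authors' normalized values. They were not lower when quantile normalization was run over all probes detected on each array. That setting gave log2 differences of 0.19 (SE 0.75) and 0.31 (SE 0.74), neither of them called. It was run over 453 to 946 detected probes in these control arrays and 529 to 1355 in these telmisartan arrays. Both arms stayed lower with median scaling (-0.91 and -0.75) and without background subtraction (-0.40 and -0.29). Without scaling they were also lower (-0.49 and -0.34), but not called. The values that follow are again those on the authors' normalized values. The log2 difference of miR-9-5p was -0.92 (SE 0.27, limma adjusted p = 0.0285), a ratio of 0.530, and 3 of the 4 telmisartan arrays lay below every control array. That of miR-9-3p was -0.75 (SE 0.24, limma adjusted p = 0.0384), a ratio of 0.594, and its 4 telmisartan values were all under the lowest control value, as was so for 14.4% of all probes. Among the 382 probes of this comparison 37.7% were called, 18.3% as lower, so a fall was common there. By size of fall, miR-9-5p ranked 16 and miR-9-3p 28. The calls did not hold when single arrays were left out: the adjusted p reached 0.0805 for miR-9-5p, which lost its call without control array 2, 3 or 4 or telmisartan array 2 or 3, and 0.0985 for miR-9-3p, which lost it without any of the 4 control arrays or telmisartan array 2 or 3.

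In arrays 5 to 8 the values of both arms were higher with telmisartan, but neither arm was called. The log2 difference of miR-9-5p was 0.25 (SE 0.24, limma adjusted p = 0.443), a ratio of 1.19, and that of miR-9-3p was 0.34 (SE 0.28, limma adjusted p = 0.380), a ratio of 1.26. Telmisartan array 5 lay above every control array of this set for miR-9-5p, and telmisartan arrays 5 and 7 did so for miR-9-3p. Of the 382 probes, 19.1% were called in arrays 5 to 8, 11.5% as higher.

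The difference between these changes was itself estimated, with treatment, array set and their product in 1 limma fit. The change in arrays 5 to 8 minus that in arrays 1 to 4 was 1.17 for miR-9-5p (SE 0.38, limma adjusted p = 0.0313) and 1.09 for miR-9-3p (SE 0.39, limma adjusted p = 0.0412). In this fit 35.3% of the probes were called, 16.5% with a positive value as for the arms, so an unequal change between the array sets was widespread. The arms ranked 13 and 15 of 382 by this value. By construction, the step between control arrays 1 to 4 and 5 to 8 enters each of these differences, as does the step between the telmisartan arrays. The telmisartan arrays of the 2 sets lay closer to each other than the control arrays did. What lay behind either step was not tested. miR-9-5p lost the call without control array 4 or 7 or telmisartan array 2, 3, 5 or 7, and miR-9-3p without any of those arrays or control array 2, 3, 5 or 6, with adjusted p up to 0.0685 and 0.0895. Under that other quantile normalization the values were -0.13 and -0.15, of the opposite sign.

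**Figure D2:**
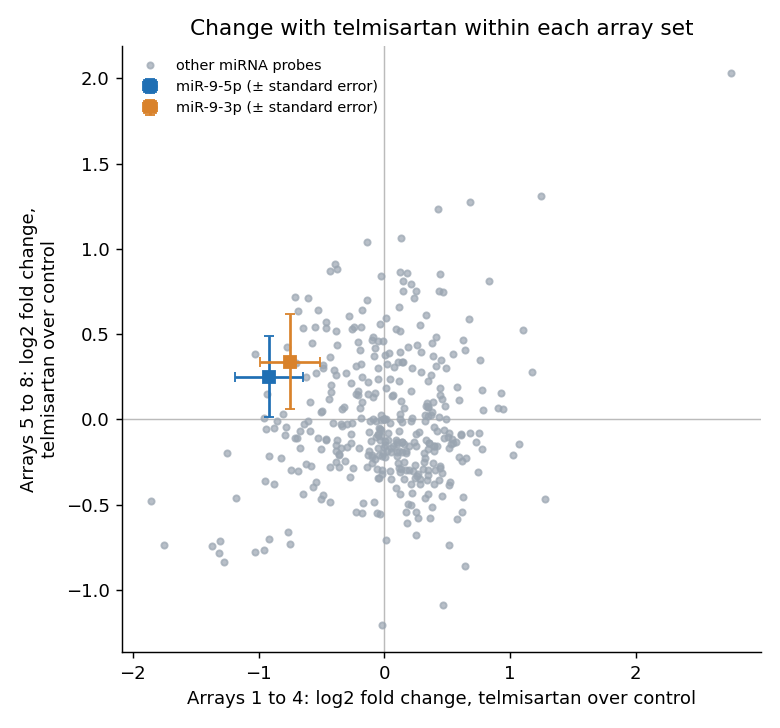
Log2 ratio of telmisartan to control in arrays 1 to 4 (horizontal axis) and in arrays 5 to 8 (vertical axis) for the 382 probes. Each point is 1 probe, and squares with bars give the miR-9 arms ± standard error. Both arms lie at the upper left, with -0.92 and -0.75 in arrays 1 to 4 and 0.25 and 0.34 in arrays 5 to 8, among other probes that also changed unequally.

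The arms rose and fell together from array to array. Pearson's r between their log2 values was 0.966 and Spearman's rho 0.974 over the 16 arrays. Within control arrays r was 0.983 and within telmisartan arrays 0.928 (n = 8 each). Within arrays 1 to 4 of both treatments r was 0.937, and within arrays 5 to 8 it was 0.905 (n = 8 each). Without control arrays 2 and 4, the arrays farthest from the median of miR-9-5p, r was 0.955 (n = 14). Centred within each treatment and array set, so that no difference between group means entered, r was 0.862 and rho 0.804. The arms share the array, its background, its labelling and its normalization, and the part of these in the likeness was not tested.

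**Figure D3:**
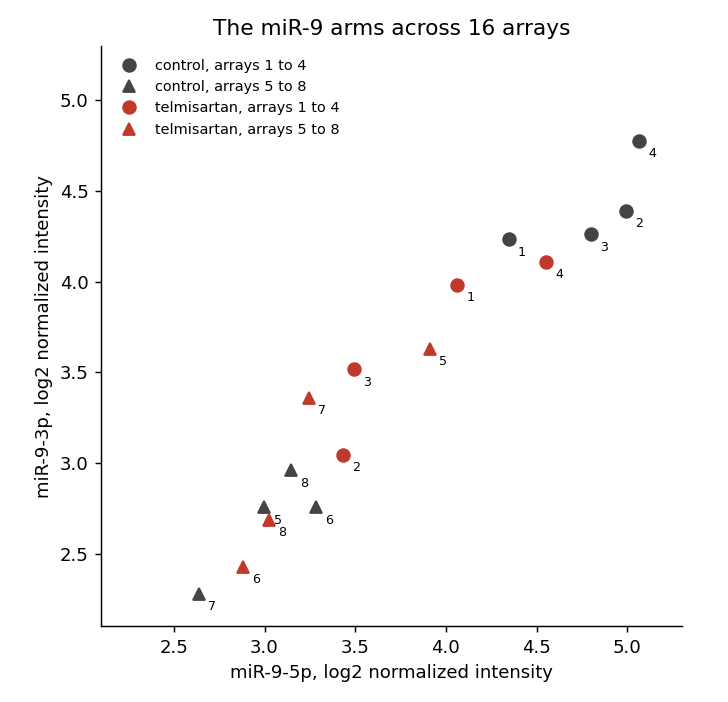
Log2 normalized intensity of miR-9-5p (horizontal axis) against miR-9-3p (vertical axis), 1 point for each of the 16 arrays with its number, black for control and red for telmisartan, circles for arrays 1 to 4 and triangles for arrays 5 to 8. The points follow a single line (r = 0.966), with control arrays 1 to 4 at the upper end and control array 7 at the lower end.

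The correlation was set beside that of the other miRNAs with both arms on all arrays. Of 33 such miRNAs, miR-9 had the highest r, a value that went into its choice. The next were miR-4485 at 0.90 and miR-28 at 0.87, the median was 0.356 and the lowest -0.602. After centring, miR-9 again ranked 1 at 0.862, above miR-4485 at 0.70, with a median of 0.0303 over the 33. The arms of the other miRNAs thus spanned nearly the whole range between these extremes. The pairs were not alike in level, and the mean log2 values of the miR-9 arms were 0.295 apart, the gap ranked 3 from the smallest.

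**Figure D4:**
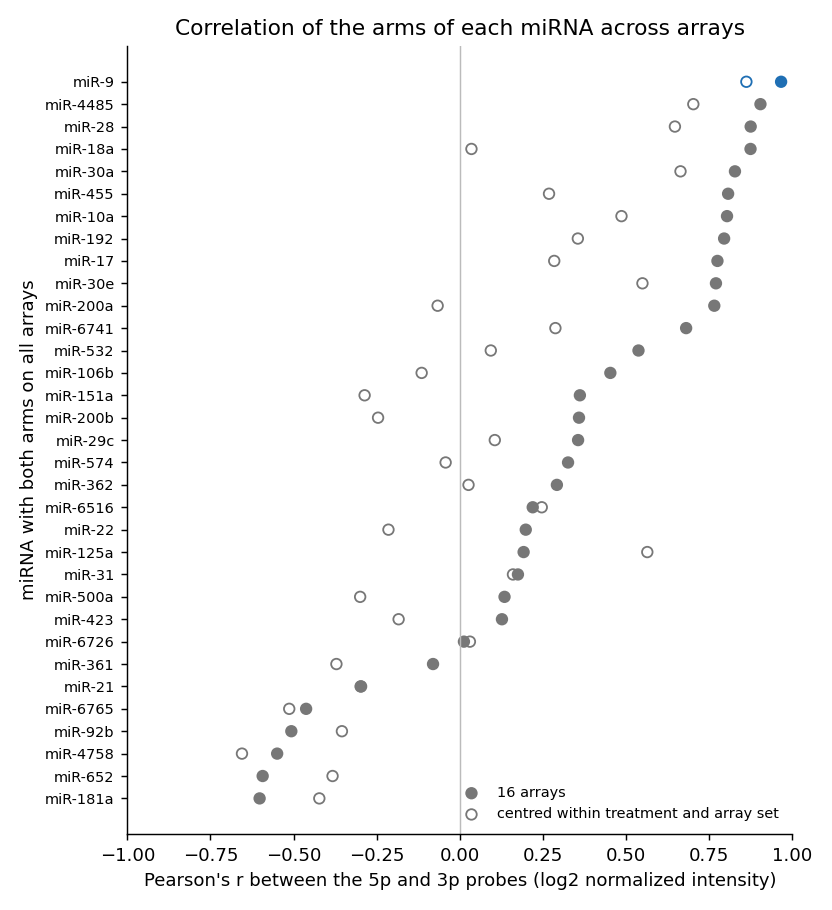
Pearson's r between the 5p and 3p probes of each of the 33 miRNAs with both arms on all 16 arrays, over all arrays (filled circles) and centred within treatment and array set (open circles), with miR-9 in blue. miR-9 lies at the right end in both, 0.966 and 0.862, against medians of 0.356 and 0.0303.

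The balance of the arms did not differ between treatments beyond the spread. A factor that multiplies both probes alike cancels in the log2 ratio of miR-9-5p to miR-9-3p, while background added to both does not. On each array this ratio ran from 0.11 to 0.61 in control and from -0.11 to 0.45 in telmisartan arrays, with wide overlap. Its mean was 0.36 ± 0.18 (SD, n = 8) in control and 0.23 ± 0.22 (SD, n = 8) in telmisartan arrays. The difference was -0.13 (two-sided exact permutation p = 0.229). Within arrays 1 to 4 it was -0.16 (exact permutation p = 0.343) and within arrays 5 to 8 -0.09 (exact permutation p = 0.657). The lowest ratios, -0.11 and -0.02, came from telmisartan arrays 7 and 3. Their blank spots spread most in intensity, with SDs of 2.61 and 2.17. By size of the change in arm ratio miR-9 ranked 21 of the 33 miRNAs, between miR-532 at -0.15 and miR-6516 at 0.13, against a median size of 0.24.

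For each arm, the probe most like it over the 16 arrays was the other arm, and the next ones shared no seed with it. After miR-9-3p, miR-9-5p was followed by miR-10a-3p (r = 0.938), from the HOXB cluster, then miR-660-5p (0.936), miR-4521 (0.936), miR-4448 (0.935) and miR-192-5p (0.929), a miRNA of columnar gut epithelium. miR-9-3p was followed by miR-15b-5p (0.961), a miRNA that represses cell cycle genes, then miR-660-5p (0.943), miR-192-5p (0.936), miR-26b-5p (0.929) and miR-4521 (0.915). Centred within each treatment and array set, miR-15b-5p had an r of 0.886 with miR-9-3p, above the 0.862 of miR-9-5p. The other arm was thus not the closest probe to miR-9-3p on that scale. None of the 7 miRNAs in these 2 lists was called between telmisartan and control, with limma adjusted p from 0.428 to 0.965.

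At the other end, miR-4485-5p had the lowest r with both arms, -0.937 with miR-9-5p and -0.955 with miR-9-3p. It was followed by miR-4463 (-0.924) and miR-6088 (-0.919) for miR-9-5p and by miR-4530 (-0.940) and miR-6743-5p (-0.933) for miR-9-3p. Strong correlations of either sign were common on these arrays. Of 378 other probes whose value varied, 43 had r above 0.8 with miR-9-5p and 56 had r below -0.8, and for miR-9-3p these counts were 49 and 64.

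Other miRNAs known from neurons were detected about as often as probes in general. Of a list of 23 neural miRNAs, 3 were detected on all 16 arrays (13%, against 14.9% of all probes), 3 were detected on none and the others on 1 to 8 arrays. The median number of arrays with detection was 4, as over all probes. miR-124-3p, the most neuron-specific of them, was detected on 3 arrays, miR-137 on 4 and the oligodendrocyte miRNA miR-219a-5p on 1.

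The 3 neural miRNAs on all arrays were miR-128-3p, miR-338-3p and miR-7-5p. Their median log2 difference with telmisartan was -0.66, against -0.01 over all probes, and 1 of the 3 was called, as lower, where 7.33% of all probes were called lower. miR-128-3p, abundant in brain, varied with the miR-9 arms (r = 0.90 with miR-9-5p and 0.91 with miR-9-3p). It was -0.13 with telmisartan (SE 0.19, limma adjusted p = 0.761), and its change differed between the array sets by 0.58 (limma adjusted p = 0.0471). miR-338-3p, known from oligodendrocytes, was -0.66 (SE 0.27, limma adjusted p = 0.126), with r of 0.77 and 0.73 with the arms and a difference between the array sets of 0.59 (limma adjusted p = 0.0372). miR-7-5p, a miRNA of neuroendocrine cells, fell by 1.06 on the log2 scale (SE 0.19, limma adjusted p = 0.00106), a ratio of 0.481, with r of 0.70 and 0.63. Its change differed between the array sets by 0.44 (limma adjusted p = 0.117). miR-7-5p was lower with telmisartan in both sets, by -1.27 in arrays 1 to 4 and -0.84 in arrays 5 to 8, where the miR-9 arms had opposite signs.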

How the data were processed

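Total RNA of OE19 cells was measured on 16 single-colour 3D-Gene human miRNA chips (8 control, 8 telmisartan). For each spot the authors deposited a raw intensity and an intensity less the background, the mean of the blank spots after removal of the highest and lowest 5%. Values of spots not above the detection level were left empty. The authors also deposited normalized intensity values of 382 probes, which quantile normalization of the background-subtracted intensity over the probes detected on all arrays rebuilt to a relative difference of 4.88e-10. The genome build of the probe design was not given in the sources used here.

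With limma 3.58.1 (R 4.3.3), lmFit and eBayes were run on log2 of the normalized values over all 382 probes, with Benjamini-Hochberg adjustment and a threshold of 0.05. The 2 array sets were also fitted apart and with an interaction term. The arm ratio was compared with exact permutation tests (scipy 1.17.1). The fit was tested on simulated data. Hairpins were folded with RNAfold 2.7.2. Precision was limited by how many arrays there were. The members, the lists and the tests were chosen with earlier results of these data known. Named miRNAs are the arms, the 5 most and 3 least correlated probes for each, the neural list, and the neighbours of miR-9 among arm pairs.

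The replicate numbers were tried as a block. Deviations from the group means correlated between same-numbered arrays, by 0.149 to 0.864 over the 8 numbers, all above 0.1. These deviations still held the step between the array sets, so they cannot tell pairing by number from a shared array set. Each control array correlated best with a telmisartan array of its own array set. Only 2 of the 8 control arrays did so with the telmisartan array of their own number. The labels do not say that the numbers pair the arrays, and the main fit did not use them. Other settings were median, no and wider quantile scaling, no background subtraction, normexp with an offset of 50 and another detection filter. An intensity trend, the methods' t-test, the exact Mann-Whitney U test and the array set as a block were also tried. Each set was fitted alone, and each array was left out in turn. Some fits were added after the data were seen. These were the fits within an array set under other scalings, without background subtraction or without single arrays. The fits without the 4 arrays whose blank spots spread most in intensity were also added then.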

Additional observations from a re-analysis of the deposited data

Results flagged for a closer look

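The change of both miR-9 arms with telmisartan differed between arrays 1 to 4 and arrays 5 to 8 in the limma fit with an interaction term. The arms were chosen by values on these same arrays, so this is a description and not independent evidence. Among the 16 fits without a single array, the call was lost in 6 for miR-9-5p and in 10 for miR-9-3p. The change in arrays 5 to 8 minus that in arrays 1 to 4 was 1.17 for miR-9-5p (limma adjusted p = 0.0313) and 1.09 for miR-9-3p (limma adjusted p = 0.0412) on the log2 scale, where 35.3% of the 382 probes passed the same threshold. What sets the 2 sets of arrays apart was not given by the labels. Dixon's Q test flagged no array in any of the 18 groups of values examined. With only 4 or 8 arrays in a group, and both array sets mixed in the groups of 8, this test could flag only a very wide gap. It does not show that no array was an outlier.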

How the results depend on the processing

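The change of the arms over all arrays passed the threshold in no fit over all arrays, but its sign was not fixed. It was 0.12 for miR-9-5p and 0.23 for miR-9-3p with quantile normalization over the probes detected on each array, a setting that moved the median of all tested probes from -0.01 to 0.23, and 0.0793 for miR-9-3p without scaling, where that median was 0.18. In arrays 1 to 4 alone it was -0.92 and -0.75, past the threshold, and in arrays 5 to 8 alone 0.25 and 0.34. Leaving out each array gave -0.52 to -0.17 for miR-9-5p and -0.39 to -0.03 for miR-9-3p. The share of probes called was 17.0% of 382. It was 8.12% (31) with median scaling, 7.85% (30) without scaling, 37.7% in arrays 1 to 4 alone, 8.38% (32) without control arrays 4 and 8 and telmisartan arrays 3 and 7, whose blank spots spread most, and 13.4% to 18.3% without single arrays. Of the 646 probes detected on at least 6 of 8 arrays of a group it was 2.48% (16) with median scaling. With quantile normalization over the probes detected on each array, limma called 0 of these 646 probes, of which 7 had an unadjusted p under 0.05.

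The difference between the array sets was -0.13 for miR-9-5p and -0.15 for miR-9-3p with quantile normalization over the probes detected on each array. It kept its sign but missed the threshold at 0.85 and 0.84 without scaling. The same was so at 1.00 and 0.90 without the 4 arrays whose blank spots spread most. With median scaling it was 1.31 and 1.29 and passed the threshold (limma adjusted p = 0.0239 and 0.0337). Without single arrays it was 0.95 to 1.39 and 0.88 to 1.29. Within arrays 1 to 4 the change was 0.19 and 0.31 with the same quantile normalization and -0.49 and -0.34 without scaling, all short of the threshold. It passed the threshold with median scaling, at -0.91 and -0.75 (limma adjusted p = 0.0117 and 0.0110). It also did so without background subtraction, at -0.40 and -0.29 (limma adjusted p = 0.0295 and 0.0380). Without single arrays it was -1.14 to -0.77 and -0.90 to -0.55. Within arrays 5 to 8 it was 0.03 to 0.38 and 0.14 to 0.54 without single arrays. The cause was not tested.

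The change of the arm ratio ran from -0.16 to -0.08 without single arrays. The correlation of the arms was 0.862 after centring and 0.958 to 0.975 without single arrays. With the replicate number as a block (a paired fit), the adjusted p was 0.446 for miR-9-5p and 0.647 for miR-9-3p, 19.6% of the probes were called (75), the exact p of the arm ratio was 0.266, and no call of the arms changed. Intensities this close to background limit all of these values.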
